A study of Mus musculus with 12 samples.

Results

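The response of regulatory T cells (Treg) to stimulation through the T cell receptor was compared between 2 genotypes, gene by gene, in all 12 of the 12 RNA-Seq libraries of the series. All libraries entered the comparison, and how genes were chosen to be named is said where they appear. The quantity of interest was the interaction, the response of CD18Foxp3 Treg minus the response of CD18wt Treg, where a response is the log2 fold change of stimulated over unstimulated cells. An interaction above 0 means that the change was more positive in CD18Foxp3 Treg. The cells were splenic RFP+CD4+ T cells sorted from mice that all carried a Foxp3-driven Cre and an RFP reporter in the ROSA26 locus, so that RFP marks cells in which the Cre had acted. In CD18Foxp3 mice both alleles of Itgb2, the gene of CD18, were floxed, and CD18wt mice were littermates with wild type Itgb2 and the same Foxp3Cre. Sorted cells of each genotype were kept overnight in 5 U/mL IL-2, either alone (unstimulated) or with agonistic antibodies to CD3 at 1 μg/mL and CD28 at 2 μg/mL (stimulated). There were 3 libraries for each combination of genotype and culture, and the ages of the mice were not given in the sources used here. The labels call the libraries of a group biological replicates, and the study's figure legend for these data describes its points as individual mice.

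CD18 is the β2 integrin chain, which pairs with CD11a (Itgal) to form LFA-1, the integrin through which T cells bind ICAM molecules on antigen-presenting cells. Antibodies to CD3 and CD28 engage the T cell receptor complex and its main costimulatory receptor directly, without an antigen-presenting cell. In T cells this signal is known to induce cytokine genes within hours, to start growth and cell division, and to switch off the genes of resting, recirculating cells. Treg differ from other T cells in that FOXP3 holds effector cytokine genes low while the high-affinity IL-2 receptor, CTLA-4 and other suppressive molecules remain expressed.

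The libraries held 10665174 to 19005482 exon reads, and 12636 of 41457 genes had enough reads to be tested. One library stood apart. Unstimulated CD18wt replicate 3 had the fewest exon reads, an intron share of 3.32% against 4.75 to 5.02% in the other unstimulated libraries, and low levels of immediate early genes, for which values are given with and without it. Stimulated CD18wt replicate 2 had an intron share of 3.66%, against 4.75 to 5.99% in the other stimulated libraries. Defining markers of other cells were low. The B cell marker Cd79a was at or below 1.84 TPM (reads scaled to gene length and library total) in each library, and the summed B cell markers, most of them Cd74, ranged from 146 to 168 TPM in unstimulated and 59.0 to 126 in stimulated CD18wt Treg, and from 179 to 259 and 114 to 204 in CD18Foxp3 Treg. The 5 tested cytotoxic lymphocyte markers included 3 that fell in CD18wt and 4 that fell in CD18Foxp3 Treg (15.3% and 16.8% of all tested genes fell). The summed levels of all cytotoxic lymphocyte markers were 36.0 to 51.3 and 44.3 to 58.5 TPM before and 15.0 to 23.4 and 20.2 to 31.5 TPM after stimulation. Summed levels were 6.63 to 21.5 TPM for myeloid and 1.40 to 6.19 TPM for plasma cell markers over all libraries, against 2899 to 4420 TPM for 8 T cell and Treg markers. Erythroid markers, all of them globin or red cell genes, summed to 1.83 to 58.1 TPM in unstimulated and 0.234 to 4.04 TPM in stimulated libraries. The part of these cells in the results was not tested. In bulk RNA, fewer cells of a type and less RNA per cell cannot be told apart.

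The responses of the genotypes ran in parallel across the transcriptome. Over the 12636 genes tested, Pearson's r between the log2 fold changes of CD18wt and CD18Foxp3 Treg was 0.863 and Spearman's rho was 0.889, and 87.6% of genes had the same direction in both. The orthogonal slope of CD18Foxp3 on CD18wt was 1.01, where 1 means equal size. These are descriptions across genes, which are not independent replicates, and the responses of the 2 genotypes share no library. The correlation rose with the level of the gene. It was 0.757 for 1301 genes below a mean of 1 TPM, 0.836 from 1 to 5 TPM, 0.925 from 5 to 20 TPM, 0.962 from 20 to 100 TPM, and 0.976 for 1462 genes above 100 TPM.

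**Figure D1:**
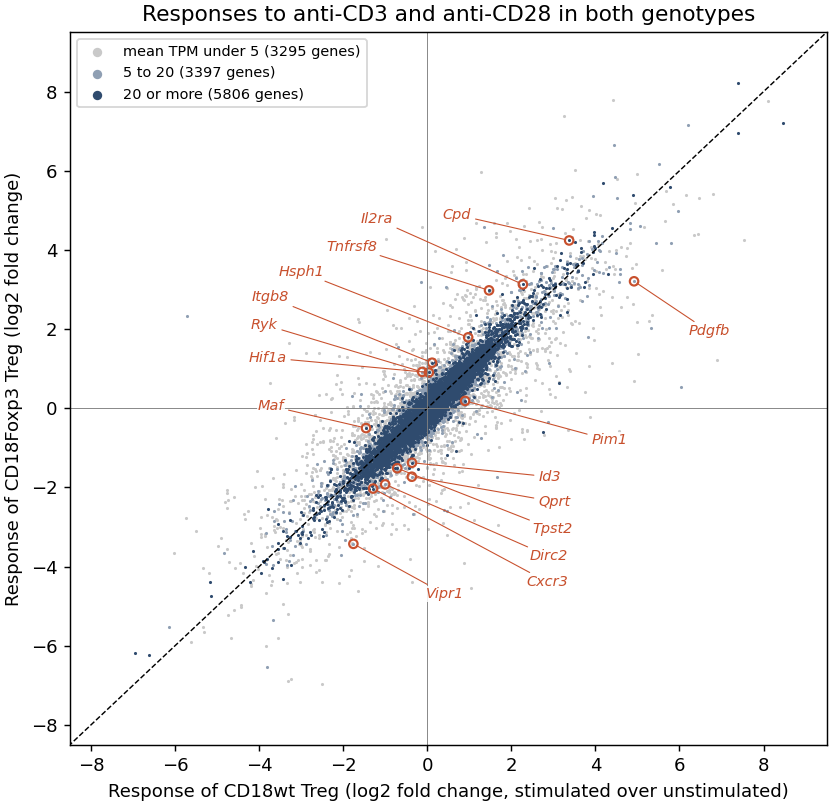
Log2 fold change of stimulated over unstimulated Treg in CD18wt (x axis) and CD18Foxp3 (y axis) for the 12498 tested genes with reads in every group, coloured by mean TPM over the 12 libraries; the dashed line marks equal responses. Genes of 20 TPM or more lie close to the line, the scatter widens at low levels, and the 16 circled genes are those with the smallest unadjusted p of the interaction in each direction under the stated rule.

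Replicates set the scale for this correlation. When each stimulated library was compared with the unstimulated library of the same replicate number, r between the responses of pairs of replicates was 0.590 to 0.689 within CD18wt (3 pairs) and 0.747 to 0.765 within CD18Foxp3 (3 pairs). Between the genotypes r was 0.651 to 0.728 over 9 pairs. The correlations between the genotypes thus overlapped those within CD18wt and lay below those within CD18Foxp3.

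A gene was called when its fold change was at least 1.5 and its adjusted p at most 0.01 in edgeR's quasi-likelihood test. Stimulation changed 4340 genes in CD18wt Treg (34.3% of those tested, 2404 up and 1936 down) and 4658 in CD18Foxp3 Treg (36.9%, 2531 up and 2127 down). Of these, 3720 were called in both, which is 85.7% of the CD18wt calls and 79.9% of the CD18Foxp3 calls, and all 3720 moved in the same direction. Genes called in 1 genotype alone mostly missed the threshold in the other rather than moving the other way. Among 620 genes called in CD18wt alone, 615 had the same direction in CD18Foxp3, with a median size of 0.85 against 0.54 on the log2 scale, and 410 had an adjusted p below 0.05 there. Among 938 called in CD18Foxp3 alone, 930 had the same direction in CD18wt, with a median size of 0.84 against 0.53, and 571 had an adjusted p below 0.05 there. These lists were split by the calls themselves, so the gap in size within them is a description.

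To compare sizes without favouring a genotype, responding genes were taken from the mean of both responses (5330 genes, 42.2% of those tested). The 2870 genes that rose had a median log2 fold change of 1.18 in CD18wt and 1.23 in CD18Foxp3 Treg, with a median interaction of 0.05, and 57.4% rose further in CD18Foxp3. The 2460 genes that fell had medians of -1.11 and -1.19, with a median interaction of -0.08, and 60.8% fell further in CD18Foxp3. Over all tested genes the median interaction was -0.01. By size of the mean response, the median interaction of rising genes was 0.03 at 1.5 to 2-fold, 0.07 at 2 to 4-fold, 0.13 at 4 to 8-fold and 0.00062 above 8-fold, the last over 323 genes. These small offsets were within the spread of replicates. The median response of the rising genes was 1.13, 1.19 and 1.25 in the CD18wt pairs and 1.25, 1.23 and 1.23 in the CD18Foxp3 pairs, and that of the falling genes was -1.002, -1.17 and -1.19 against -1.34, -1.13 and -1.15. The replicates of the genotypes overlapped in both directions. Without stimulated CD18wt replicate 1 both medians changed sign, to -0.0027 for rising and 0.010 for falling genes.

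No gene passed the threshold for the interaction (0 of 12636 genes, 0%, edgeR quasi-likelihood test), and the smallest adjusted p was 0.556. At an unadjusted p under 0.05 there were 485 genes (3.84%), of which 247 (1.95%) had a more positive and 238 (1.88%) a more negative response in CD18Foxp3 Treg. The responses of the 3 replicate pairs did not overlap between the genotypes in 1276 genes (10.1%), 629 of them (4.98%) higher and 647 (5.12%) lower in CD18Foxp3. Other tools called few genes. DESeq2 called 1 (Mamdc4), the edgeR likelihood ratio test called 6 (Mamdc4, Nacc2, Gm10401, Gm38102, Dio2 and Spire1) and limma on log2(TPM + 1) called 1 (Exosc6). The uniquely placed share of reads was 0% for Exosc6 and Gm10401, 31.6% for Mamdc4 and 32.2% for Gm38102, 97.5% for Nacc2 and 100% for Dio2 and Spire1. All 7 genes had a mean below 5 TPM.

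How far the responses could still differ is given by the intervals. The median standard error of the interaction was 0.273 on the log2 scale. Its 95% interval lay wholly within a 2-fold difference for 7707 of the 12498 genes that had reads in every group (61.7%), and within a 1.5-fold difference for 3080 (24.6%). Above a mean of 100 TPM, 91.5% of genes had an interval within 2-fold. Below 1 TPM this held for 5 of 1213 genes, with a median standard error of 1.12. In 16 genes the interval lay wholly beyond a 2-fold difference, 15 of them at a mean below 5 TPM.

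The targeted gene itself fell with stimulation in both genotypes. Itgb2 (ENSMUSG00000000290; chromosome 10 of GRCm38, 77530252 to 77565708) stood at 465, 431 and 387 TPM in unstimulated and 331, 329 and 329.6 TPM in stimulated CD18wt Treg. In CD18Foxp3 Treg it stood at 229, 257 and 234 TPM, and at 131, 202 and 183 TPM after stimulation. Each CD18Foxp3 library was below each CD18wt library of the same culture, and the counts cover the whole gene, including exons outside the deleted one. Itgb2 fell by 0.77 (standard error 0.14, adjusted p = 0.000258) in CD18wt and by 0.85 (0.14, adjusted p = 8.93e-05) in CD18Foxp3 on the log2 scale. The interaction was -0.09 (0.20), with a 95% interval of -0.50 to 0.33. Itgal, the α chain of LFA-1, also fell in both, with responses of -1.10 and -1.17 and an interaction of -0.07 (standard error 0.18). Leaving out stimulated CD18Foxp3 replicate 1 turned both signs, to 0.069 and 0.012.

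TPM and fitted fold changes are on different scales. TPM sum to the same total in every library, and on log2(TPM + 1) the median of all tested genes moved by 0.34 with stimulation in CD18wt and by 0.29 in CD18Foxp3 Treg, against 0.03 and 0.01 under the TMM normalization (trimmed mean of M values) of the fit. A rise in TPM of a stimulated library is therefore larger than the fitted change. Of the genes called in CD18wt, 55.4% were rises in the fit and 79.8% on log2(TPM + 1), and of those called in CD18Foxp3 54.3% and 75.9%. The interaction is nearly free of this shift, with medians of -0.01 and -0.04.

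Among genes with a mean of at least 5 TPM and at least 80% uniquely placed reads, the 5 largest mean rises were those of Il3, Crabp2, Ccl3, Il2 and Ccl4, all silent or nearly so at rest. Il3, which encodes a growth factor for myeloid cells, had no read in the 6 unstimulated libraries. It reached 25.2, 24.9 and 11.1 TPM in stimulated CD18wt and 64.5, 41.2 and 4.97 TPM in stimulated CD18Foxp3 Treg, and the genotypes overlapped. Ccl3 and Ccl4, inflammatory chemokine genes, rose from at most 2.63 TPM at rest to between 121 and 489 TPM. Ccl3 rose by 8.46 (standard error 0.75) in CD18wt and 7.22 (0.69) in CD18Foxp3 on the log2 scale, with a 95% interval of the interaction from -4.37 to 1.89. Il2, the T cell growth factor that FOXP3 represses, stood at 141, 67.3 and 41.0 TPM in stimulated CD18wt and 60.6, 46.9 and 16.04 TPM in stimulated CD18Foxp3 Treg. Its responses were 7.39 and 8.21, from 0 to 4 reads per unstimulated library, and its interaction had a standard error of 1.85. Crabp2, a carrier of retinoic acid, went from at most 2 reads per library to between 107 and 192 reads. In all of these the size of the rise is set by a handful of reads at rest, so the difference between the genotypes is poorly known. For Il2 the 95% interval of the interaction ran from -3.22 to 4.86 on the log2 scale. Il3 and Crabp2 had a group without reads, and no interval was given for them.

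Under the same limits on level and unique reads, the 5 largest mean falls were those of Gm32633, Fos, Fosb, Gm20069 and Cd7. Cd7, a receptor of the immunoglobulin superfamily, stood at 42.7, 28.4 and 57.2 TPM in unstimulated CD18wt and 56.8, 51.5 and 70.9 TPM in unstimulated CD18Foxp3 Treg. It was at or below 4.46 TPM in every stimulated library. Its responses were -5.15 (standard error 0.41) and -4.74 (0.37), with an interaction of 0.42 (0.55).

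For several immediate early genes 1 unstimulated library stood far from the others. Fos, a subunit of the AP-1 transcription factor, stood at 1844 and 1545 TPM in unstimulated CD18wt replicates 1 and 2 and at 30.3 TPM in replicate 3. Unstimulated CD18Foxp3 Treg had 562, 1038 and 466 TPM, and all 6 stimulated libraries lay between 8.07 and 17.0 TPM. Replicate 3 was thus the only unstimulated library near the stimulated level. Fosb (275, 288 and 2.41 TPM), Jun (1013, 793 and 48.3 TPM) and the phosphatase gene Dusp1 (1525, 1453 and 57.2 TPM), which restrains MAP kinases, had the same pattern in unstimulated CD18wt replicates 1, 2 and 3.

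**Figure D2:**
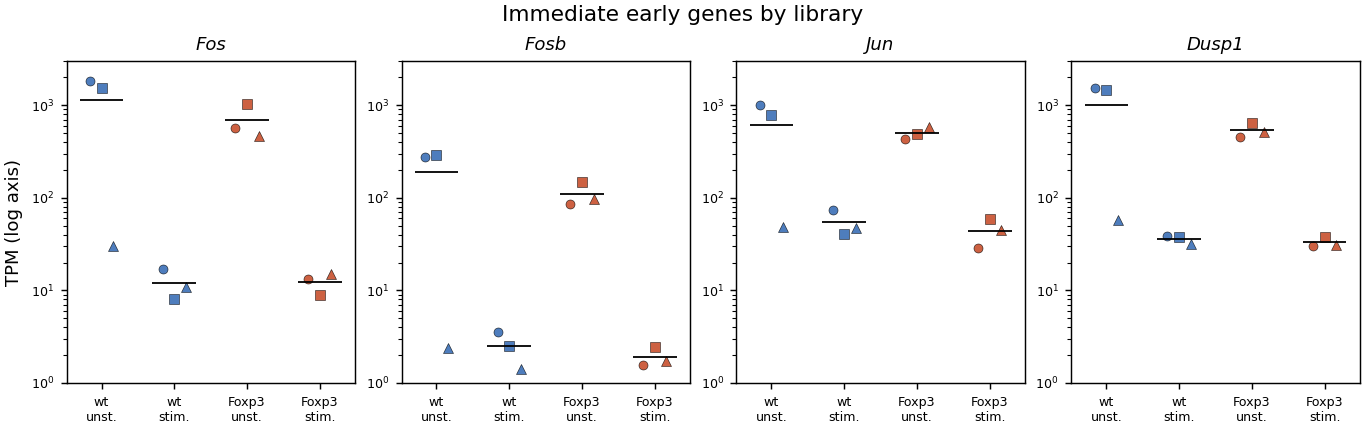
TPM (log axis) of Fos, Fosb, Jun and Dusp1 in each library of the 4 groups (wt, CD18wt; Foxp3, CD18Foxp3; unst., unstimulated; stim., stimulated); circles, squares and triangles are replicates 1, 2 and 3 and the bars are group means. The triangle of unstimulated CD18wt lies among the stimulated libraries for Fosb and Jun and just above them for Fos and Dusp1.

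With all libraries, the interaction of Dusp1 was 0.77 (standard error 1.204). Without unstimulated CD18wt replicate 3 it was 1.33 (0.23, unadjusted p = 3.82e-05), and its adjusted p of 0.241 was the smallest of that fit. Without it the interaction was 1.35 (0.49) for Fos, 0.96 (0.43) for Fosb and 0.55 (0.35) for Jun, against 0.78, 0.38 and 0.01 with it. With the replicate number as a block and all libraries kept, the values went the other way, to 0.030 for Dusp1, -0.072 for Fos, -0.50 for Fosb and -0.68 for Jun. Not all genes of this class had the pattern. Nr4a3, an orphan nuclear receptor, stood at 15.6, 17.4 and 16.5 TPM and Egr2, a zinc finger factor, at 40.6, 42.1 and 54.0 TPM in unstimulated CD18wt Treg. Dusp1 fell by 5.17 in CD18wt with this library and by 5.73 without it, against 4.40 in CD18Foxp3. These 6 genes were looked at after their values were seen. Among the 24 tested immediate early and activation transcription factors, 12 rose and 3 fell in each genotype, 15 were called in both, and 0 had an unadjusted p of the interaction under 0.05. Of all tested genes 19% and 20% rose and 15.3% and 16.8% fell, so that the falls were near the background. Such a p of the interaction was found in 3.84% of all tested genes. The interval of the interaction lay within 2-fold for 13 of the 24. Irf4, a dose-sensitive reader of receptor signals, rose from 26.7, 26.1 and 30.6 TPM to 359, 473 and 568 TPM in CD18wt, and from 22.2, 21.8 and 19.1 to 507, 404 and 337 TPM in CD18Foxp3 Treg. Its responses were 3.67 and 3.94, and those of Myc, which drives growth, were 1.87 and 1.78.

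The programs of growth and division rose together in both genotypes. All 22 DNA replication genes were called as rises in both (19% of all tested genes rose in CD18wt and 20% in CD18Foxp3), with medians of 2.30 and 2.47. Mitosis genes had the largest medians, 3.02 and 3.13, and 17 of 18 rose in each. The interval of the interaction lay within 2-fold for only 1 of the 18 mitosis genes and for 14 of the 22 DNA replication genes. For most mitosis genes the sizes of the responses could therefore still differ by more than 2-fold. Of 20 ribosome biogenesis genes 19 rose in each, with medians of 1.62 and 1.72. Of 25 proteasome subunits 19 rose in CD18wt and 20 in CD18Foxp3, and all 25 had an interval of the interaction within 2-fold. Of 14 genes of cholesterol synthesis and uptake 13 and 12 rose, and of 17 genes of glycolysis and glucose uptake 13 rose and 2 fell in each. Of 17 genes of amino acid uptake and ATF4 targets 14 rose in CD18wt and 13 in CD18Foxp3.

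Single members show the size. Hk2, the inducible hexokinase, went from 2.43, 2.46 and 3.92 TPM to 43.1, 51.5 and 86.9 TPM in CD18wt and from 1.88, 1.95 and 2.53 to 46.8, 60.0 and 63.7 TPM in CD18Foxp3 Treg. Idi1, an enzyme of isoprenoid synthesis, rose by 3.25 and 3.54, and Gnl3, a nucleolar GTPase, by 2.37 and 2.50 on the log2 scale. The replication factor Mcm10 rose by 4.83 and 4.53, and the mitotic kinase Aurkb by 4.29 (standard error of the interaction 0.65) and 3.40. In this group of programs 2 genes had an unadjusted p of the interaction under 0.05 (3.84% of all tested genes did). Both were among the 22 DNA replication genes and they were of opposite sign. The one with the negative interaction was Ccne2, a cyclin of the G1 to S transition, which rose by 4.59 and 3.40 (interaction -1.18, standard error 0.47) from levels below 1 TPM in unstimulated CD18wt and of 1.48, 1.69 and 3.40 TPM in unstimulated CD18Foxp3 Treg.

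**Figure D3:**
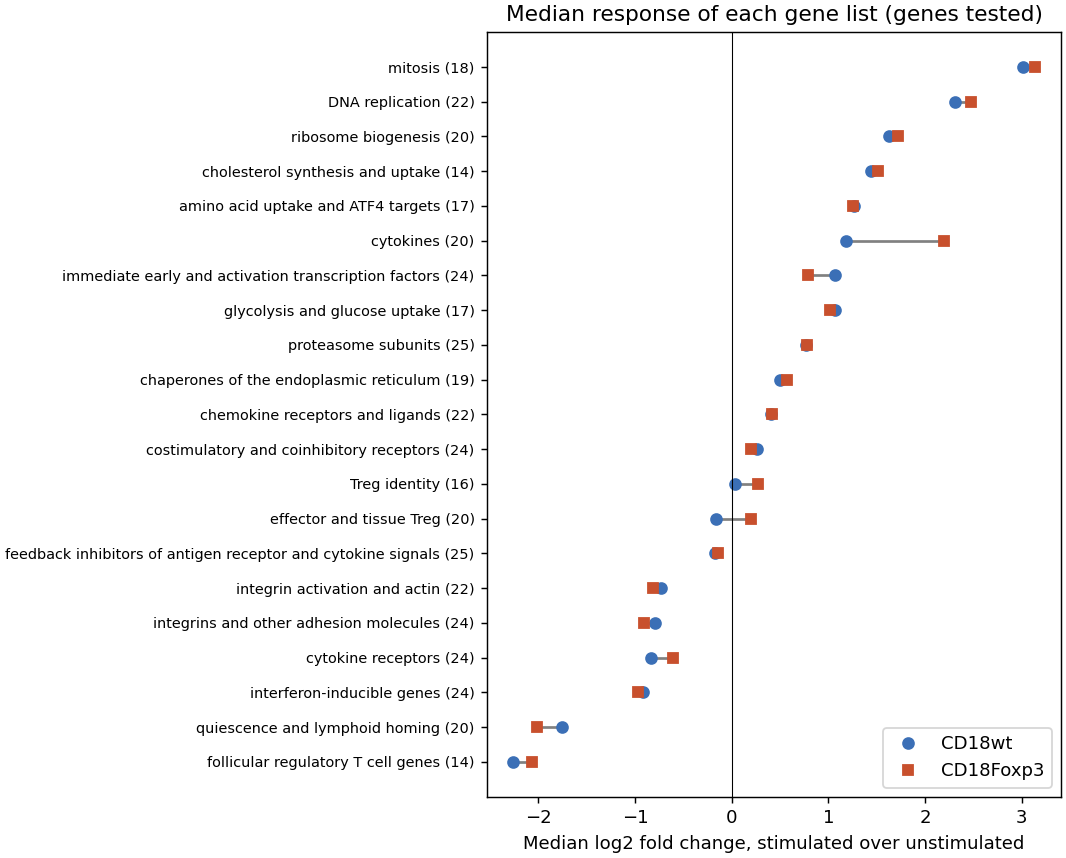
Median log2 fold change of stimulated over unstimulated Treg for 21 gene lists, with the number of genes tested in parentheses; blue circles are CD18wt and red squares CD18Foxp3. The medians of most lists lie close together, from mitosis (3.02 and 3.13) to follicular Treg genes (-2.26 and -2.07), and the cytokine list, of 20 genes, has the widest gap.

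Genes of resting, recirculating cells fell in both. Of 20 quiescence and lymphoid homing genes 17 fell in CD18wt and 18 in CD18Foxp3 (15.3% and 16.8% of all tested genes fell), with medians of -1.76 and -2.02. Pik3ip1, an inhibitor of PI3 kinase, went from 95.7, 100.4 and 76.9 TPM to 7.53, 6.12 and 5.58 TPM in CD18wt and from 89.2, 79.6 and 87.2 to 5.14, 6.74 and 3.93 TPM in CD18Foxp3 Treg. It fell by 4.22 and 4.38, with an interaction of -0.16 (standard error 0.23). The interaction was negative in 18 of the 20 genes, and 2 had an unadjusted p under 0.05, Id3 and Tcf7. Over all tested genes 48.7% had an interaction above 0 and 3.84% an unadjusted p under 0.05. Tcf7, a transcription factor of resting T cells, fell by 1.51 in CD18wt and 2.02 in CD18Foxp3 (interaction -0.52, standard error 0.20). Bach2 was the exception in direction and rose in both, by 1.30 and 0.87.

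Of 22 genes of integrin activation and actin 14 fell in each genotype, the same 14, 0 rose and 8 were called in neither (15.3% and 16.8% of all tested genes fell). All 22 had an interval of the interaction within 2-fold and 0 had an unadjusted p under 0.05. Rhoh, a GTPase of the hematopoietic lineage, fell by 1.80 and 1.93, and the adaptor gene Fyb by 1.53 and 1.48. Tln1 and Fermt3, whose products talin-1 and kindlin-3 bind integrin β chains, fell by 0.69 and 0.79 and by 0.65 and 0.70. Among 24 tested integrins and other adhesion molecules 11 fell and 2 rose in CD18wt and 12 fell and 3 rose in CD18Foxp3. Of all tested genes 19% and 20% rose, and 3.84% had an unadjusted p of the interaction under 0.05. The 3 members with an unadjusted p under 0.05 all had a more positive response in CD18Foxp3. They were Itgb8, Itgav, whose α chain pairs with β8, and Cd44, the hyaluronan receptor. Itgav rose by 1.48 in CD18wt and 2.06 in CD18Foxp3 (interaction 0.58, standard error 0.19). Cd44 had responses of 0.02 and 0.55 (interaction 0.53, 0.20).

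Sizes parted most clearly in 16 genes, the 8 in each direction with the smallest unadjusted p of the interaction among genes at a mean of 5 TPM or more whose replicate responses did not overlap. They were picked by that p, so it serves as a description, and 0 of the 16 passed adjustment over all genes (adjusted p from 0.658 to 0.987, edgeR quasi-likelihood test). Choosing them by p and by responses that do not overlap largely fixes that the sign holds in other fits of the same libraries.

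Itgb8 (ENSMUSG00000025321; chromosome 12 of GRCm38, 119158022 to 119238802), the β8 integrin chain with which Treg activate latent TGF-β, had the smallest p of the 16. It stood at 15.0, 17.3 and 13.6 TPM in unstimulated and 24.3, 17.3 and 24.1 TPM in stimulated CD18wt Treg. In CD18Foxp3 Treg it stood at 11.6, 13.9 and 11.8 TPM and reached 42.5, 30.1 and 33.9 TPM, so that each stimulated CD18Foxp3 library was above each stimulated CD18wt library. The response was 0.12 (standard error 0.15, adjusted p = 0.551) in CD18wt and 1.15 (0.15, adjusted p = 9.45e-06) in CD18Foxp3, and the interaction was 1.04 (0.21, unadjusted p = 0.000171). Its 95% interval ran from 0.58 to 1.49.

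Hif1a (ENSMUSG00000021109; chromosome 12, 73901375 to 73947530), the hypoxia-inducible transcription factor of glycolytic genes, differed mainly at rest. It stood at 215, 245 and 214 TPM in unstimulated CD18wt and at 134, 133 and 156 TPM in unstimulated CD18Foxp3 Treg. After stimulation it stood at 275, 295 and 341 TPM and at 395, 298 and 327 TPM, and the genotypes overlapped. Its responses were 0.04 and 0.90, with an interaction of 0.86 (standard error 0.19). The difference between the genotypes was -0.69 (0.13) at rest and 0.17 (0.13) after stimulation. Ryk, a receptor for Wnt ligands, and the chaperone gene Hsph1 had lower levels at rest in each CD18Foxp3 library as well. After stimulation both stood higher in each CD18Foxp3 library, Hsph1 by a narrow margin. Ryk went from 12.9, 12.9 and 11.4 TPM to 13.9, 16.6 and 14.2 TPM in CD18wt and from 7.42, 9.15 and 9.32 to 19.7, 18.7 and 24.5 TPM in CD18Foxp3 Treg (interaction 1.04, standard error 0.24). Hsph1 went from 55.2, 69.5 and 79.8 TPM to 178, 176 and 177 TPM and from 37.8, 43.7 and 45.5 to 189, 196 and 182 TPM (interaction 0.82, 0.20). The interaction and the difference at rest use the same unstimulated libraries.

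Il2ra (ENSMUSG00000026770; chromosome 2, 11642807 to 11693193), the α chain of the high-affinity IL-2 receptor, differed in opposite directions before and after stimulation, by -0.36 (standard error 0.15) and 0.50 (0.15). It rose from 133, 170.2 and 156 TPM to 883, 926 and 1131 TPM in CD18wt and from 133, 124 and 107 to 1550.0, 1151 and 1414 TPM in CD18Foxp3 Treg. The lowest stimulated CD18Foxp3 library was just above the highest stimulated CD18wt library. The responses were 2.28 (standard error 0.16) and 3.13 (0.17), with an interaction of 0.85 (0.22). Tnfrsf8, which encodes CD30, a TNF receptor family member of activated lymphocytes, reached 56.3, 41.2 and 49.96 TPM in stimulated CD18wt and 81.2, 93.9 and 171 TPM in stimulated CD18Foxp3 Treg, from 9.28 to 16.04 TPM at rest in all 6 unstimulated libraries. Its interaction was 1.51 (0.36). Cpd, a carboxypeptidase, was lower at rest in CD18Foxp3 Treg, at 4.19, 4.44 and 4.71 TPM against 6.38, 7.27 and 5.44 TPM, and higher after stimulation, at 115, 97.6 and 112 TPM against 86.6, 94.9 and 78.0 TPM. It rose by 3.38 in CD18wt and 4.24 in CD18Foxp3 (interaction 0.86, 0.20). Maf, a transcription factor of IL-10-producing T cells, fell by 1.46 in CD18wt, from 107, 89.0 and 126 TPM to 68.2, 40.4 and 48.0 TPM. In CD18Foxp3 Treg it went from 77.8, 75.8 and 80.4 TPM to 64.8, 70.1 and 78.3 TPM, a response of -0.50 that missed the adjusted p threshold (0.0206), and the interaction was 0.96 (0.24).

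**Figure D4:**
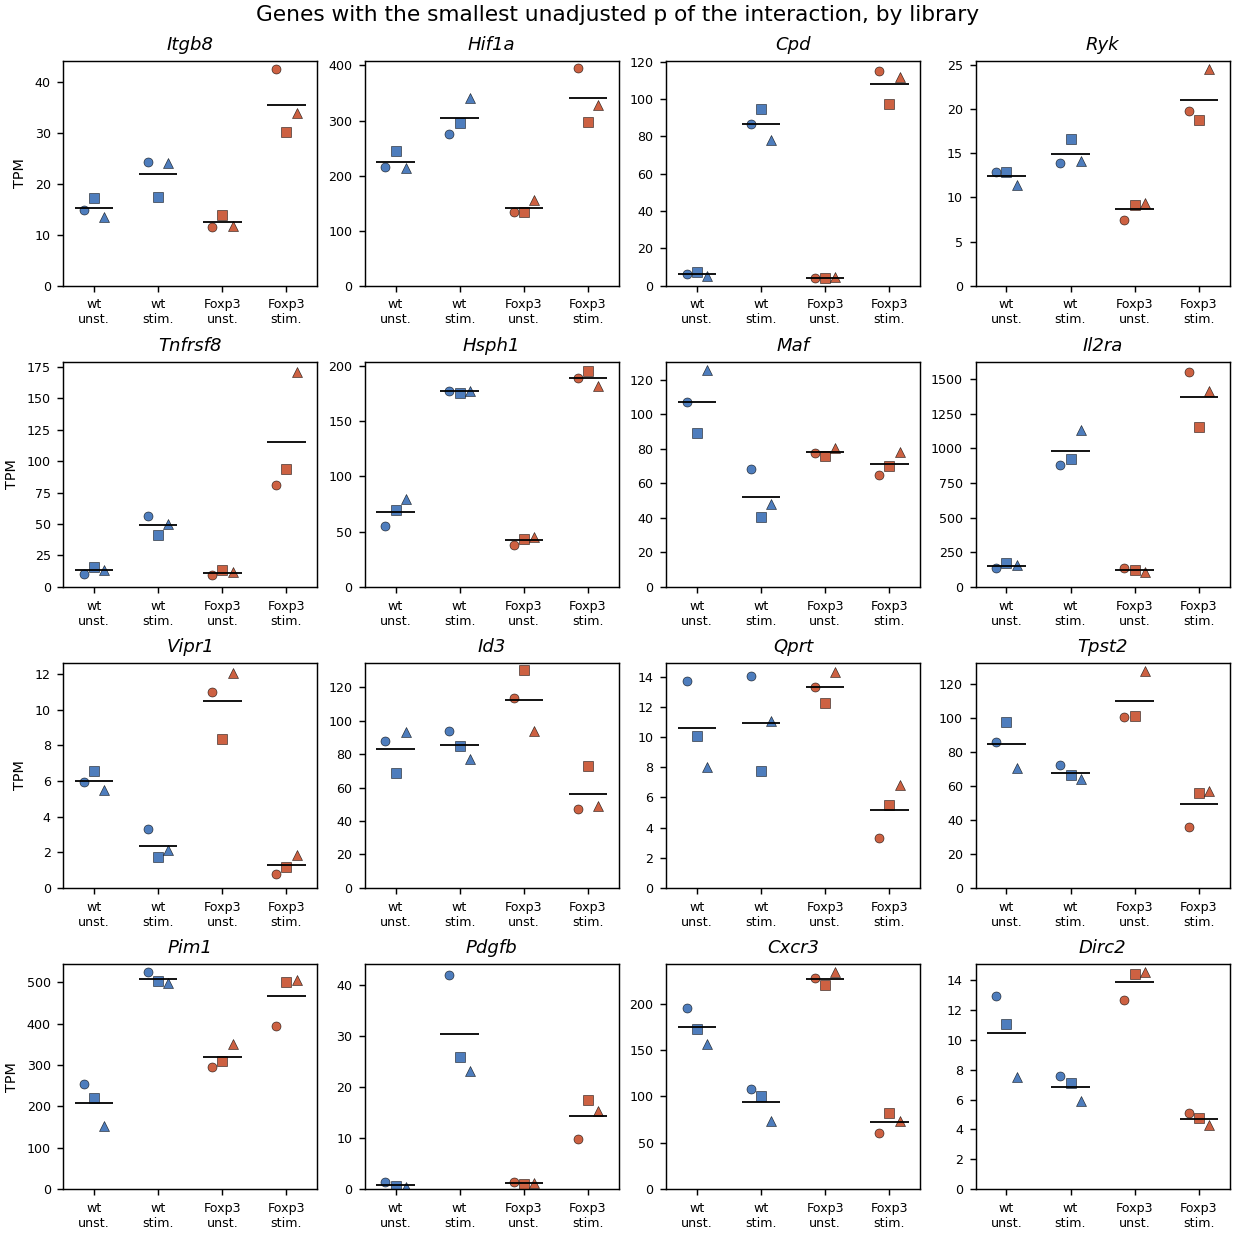
TPM of the 16 genes in each library of the 4 groups (wt, CD18wt; Foxp3, CD18Foxp3; unst., unstimulated; stim., stimulated); circles, squares and triangles are replicates 1, 2 and 3 and the bars are group means. The upper 8 genes have the more positive response in CD18Foxp3 Treg and the lower 8 the more negative response. Among the upper 8, each CD18Foxp3 library is lower at rest for Hif1a, Ryk, Cpd, Hsph1, Maf and, narrowly, Il2ra. After stimulation each is higher for Itgb8, Tnfrsf8, Il2ra, Ryk, Cpd and Hsph1.

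In the opposite direction, all 8 genes had a higher mean TPM at rest and a lower mean TPM after stimulation in CD18Foxp3 Treg. The 8 genes with the more positive response were the reverse, with a lower mean at rest and a higher mean after stimulation. Choosing genes by the interaction favours such a crossover in both sets, so it serves as a description. Vipr1 (ENSMUSG00000032528; chromosome 9, 121642716 to 121672954), a receptor of vasoactive intestinal peptide, stood at 5.93, 6.57 and 5.52 TPM in unstimulated and 3.31, 1.71 and 2.11 TPM in stimulated CD18wt Treg. CD18Foxp3 Treg went from 11.02, 8.35 and 12.1 TPM to 0.789, 1.15 and 1.85 TPM. It fell by 1.76 and 3.43, with an interaction of -1.67 (standard error 0.40). Id3 (ENSMUSG00000007872; chromosome 4, 136143497 to 136145755), an inhibitor of E-protein transcription factors, stood at 87.6, 68.4 and 93.5 TPM before and 94.0, 84.8 and 77.1 TPM after stimulation in CD18wt. In CD18Foxp3 Treg it fell from 114, 130.2 and 94.1 TPM to 47.0, 73.0 and 48.8 TPM, and all 3 stimulated libraries lay below the CD18wt ones. Its responses were -0.36 (standard error 0.19, adjusted p = 0.124) and -1.38 (0.19, adjusted p = 1.76e-05), with an interaction of -1.01 (0.27).

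Cxcr3, the chemokine receptor of type 1 inflamed tissue, stood at 196, 173 and 157 TPM in unstimulated CD18wt and 228, 221 and 234 TPM in unstimulated CD18Foxp3 Treg, without overlap. After stimulation the values were 108, 101 and 73.8 TPM and 60.6, 81.7 and 74.0 TPM, and they overlapped. It fell by 1.29 and 2.03 (interaction -0.74, standard error 0.22). Pim1, a kinase induced by IL-2, rose by 0.90 in CD18wt, from 253, 219 and 153 TPM to 526, 502 and 499 TPM. It started higher in CD18Foxp3 Treg, at 296, 309.6 and 350.2 TPM, and ended at 395, 500.4 and 507 TPM, a response of 0.19 that was not called (interaction -0.71, 0.21). Pdgfb, a platelet-derived growth factor chain, rose to 41.9, 25.8 and 23.1 TPM in CD18wt and 9.86, 17.4 and 15.3 TPM in CD18Foxp3 Treg from at most 1.45 TPM at rest. Its responses were 4.92 and 3.21, with an interaction of -1.71 (0.50). Qprt, an enzyme of NAD synthesis, Tpst2, a tyrosylprotein sulfotransferase, and Dirc2, a lysosomal membrane transporter, had interactions of -1.36 (0.38), -0.80 (0.23) and -0.92 (0.28).

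Genes that mark Treg mostly had a more positive response in CD18Foxp3 cells, and 0 of them passed the adjusted threshold for the interaction. Of 16 tested Treg identity genes, 3 rose and 3 fell in CD18wt and 5 rose and 2 fell in CD18Foxp3. Of all tested genes 19% and 20% rose and 15.3% and 16.8% fell, so that the CD18wt counts were near the background. The median interaction was 0.26, against -0.01 over all tested genes, and 12 of 16 were positive (48.7% of all genes were). Against 3.84% of all tested genes, 4 of the 16 had an unadjusted p under 0.05, all positive. They were Il2ra, Nt5e, Ikzf2 and Ikzf4. The median was 0.41 without stimulated CD18wt replicate 2 and 0.19 without stimulated CD18Foxp3 replicate 3, the ends of its range with 1 library left out. The summed level of 8 T cell and Treg markers, of which Il2ra and Ikzf2 are also Treg genes with such a p, was 2899 to 3506 TPM in stimulated CD18wt and 3571 to 4420 TPM in stimulated CD18Foxp3 Treg, and its part in this result was not tested. Foxp3 itself stood at 95.5, 108 and 73.4 TPM in unstimulated and 166, 133 and 173 TPM in stimulated CD18wt Treg, and at 102, 97.3 and 101 and then 146, 206 and 207 TPM in CD18Foxp3 Treg. Its responses were 0.37 and 0.53, with an interaction of 0.16 (standard error 0.20), and the genotypes overlapped in both cultures. Ikzf2, which encodes Helios, went to 166, 155 and 187 TPM in CD18wt and 278, 196 and 215 TPM in CD18Foxp3 Treg, with an interaction of 0.55 (0.20). Nt5e, the ectonucleotidase CD73, fell by 0.73 in CD18wt and had a response of -0.11 in CD18Foxp3 (interaction 0.62, 0.19). Ctla4 responded by 1.02 (adjusted p = 0.0129) and 1.93 (adjusted p = 0.000185), and the 95% interval of its interaction ran from -0.0032 to 1.83.

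Among 20 effector and tissue Treg genes the median interaction was 0.43, and 18 of 20 were positive. In this list 7 rose and 3 fell in CD18wt, and 8 rose and 2 fell in CD18Foxp3. Of all tested genes 19% and 20% rose and 15.3% and 16.8% fell, so that the falls did not exceed the background. An unadjusted p of the interaction under 0.05 was found in 7 of the 20 (3.84% of all tested genes), 6 positive and 1 negative. The median was 0.20 without stimulated CD18Foxp3 replicate 3 and 0.27 without unstimulated CD18Foxp3 replicate 1, and at most 0.58 with another library left out. Icos, a costimulatory receptor that supports effector Treg, rose from 137, 153 and 139 TPM to 358, 244 and 278 TPM in CD18wt and from 146, 138 and 202 to 677, 424 and 613 TPM in CD18Foxp3 Treg. The stimulated groups did not overlap, and the responses were 0.63 and 1.46 (interaction 0.83, standard error 0.26). Tnfrsf9, which encodes 4-1BB, reached 886, 808 and 915 TPM and 1236, 1211 and 1575 TPM (interaction 0.59, 0.19). Ccr8, a chemokine receptor of tissue Treg, reached 259, 249 and 259 TPM and 501, 363 and 576 TPM (interaction 0.68, 0.30). The other positive ones were Maf, Ebi3 (0.72) and Gata3 (0.60). Of these genes, Tnfrsf9, Ccr8, Ebi3 and Gata3 were named after their values were seen. The number of genes with an unadjusted p under 0.05 was between 3 and 8 when each library was left out in turn, and it was 3 without unstimulated CD18wt replicate 1, without stimulated CD18wt replicate 3 and without stimulated CD18Foxp3 replicate 3.

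**Figure D5:**
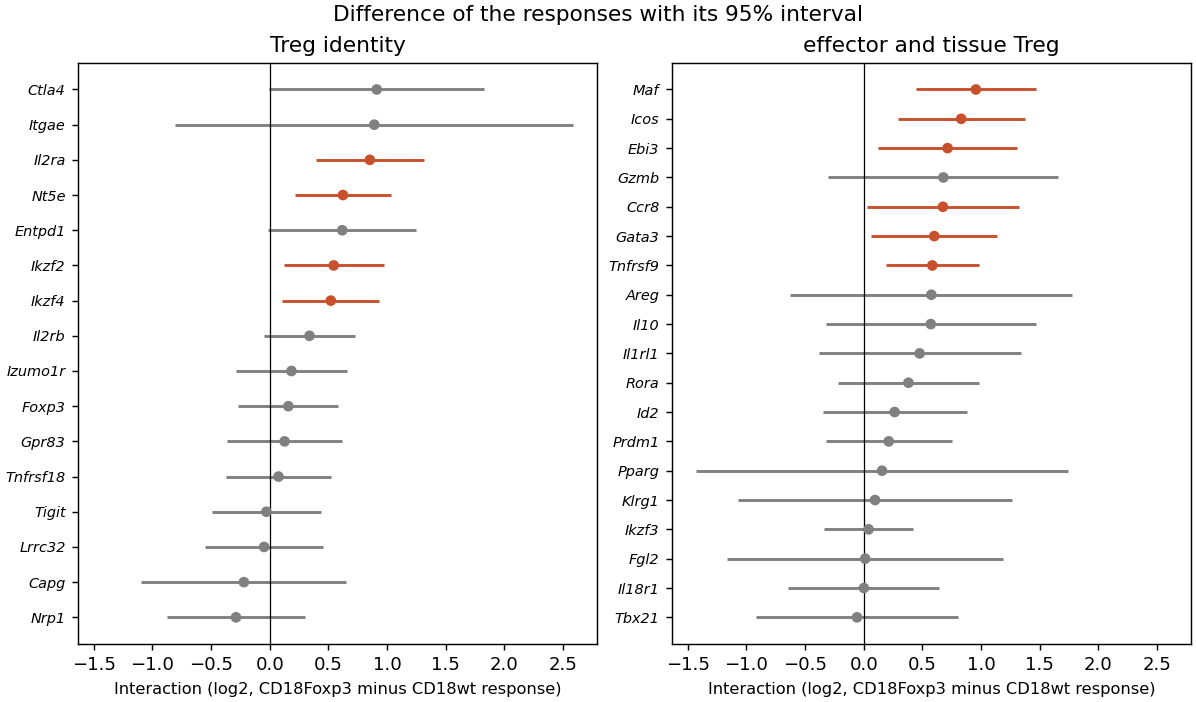
Interaction (CD18Foxp3 minus CD18wt response, log2) with its 95% interval for the 16 tested Treg identity genes (left) and 19 of the 20 effector and tissue Treg genes (right); red marks intervals wholly above 0, and all adjusted p-values were above the threshold. Most points lie to the right of 0, and Foxp3, Tigit and Ikzf3 lie close to it.

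For Il10, Gzmb and Lrrc32 the interval of the interaction included 0. Il10, an anti-inflammatory cytokine gene, rose from 13.1, 20.05 and 7.33 TPM to 135, 89.2 and 126 TPM in CD18wt and from 13.2, 7.15 and 15.6 to 179.8, 153 and 112 TPM in CD18Foxp3 Treg. Its responses of 2.69 and 3.26 gave an interaction of 0.57 with a 95% interval of -0.32 to 1.47. Gzmb, which encodes granzyme B, was higher in each CD18Foxp3 library of both cultures, at 6.73, 7.13 and 12.8 against 3.40, 2.996 and 3.43 TPM at rest and at 145, 172 and 313 against 38.5, 49.4 and 60.0 TPM after stimulation. It rose by 3.52 and 4.20 (interaction 0.68, standard error 0.46). Lrrc32, which encodes the latent TGF-β anchor GARP, rose by 1.76 and 1.71 (interaction -0.05, 0.24).

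Of 20 tested cytokine genes 8 rose and 2 fell in CD18wt and 9 rose and 3 fell in CD18Foxp3, with medians of 1.18 and 2.19, a median interaction of 0.37 and 5 intervals within 2-fold. Of all tested genes 19% and 20% rose and 15.3% and 16.8% fell, so that the falls were near the background. Il13, a type 2 cytokine gene, held 4, 4 and 0 reads in unstimulated and 0, 4 and 4 reads in stimulated CD18wt libraries. CD18Foxp3 libraries held 1, 0 and 4 reads, and 71, 39 and 38 reads after stimulation, which are 9.30, 5.82 and 6.16 TPM. The interaction was 4.71 (standard error 1.44, unadjusted p = 0.00481), with an adjusted p of 0.987. Il4, its neighbour in the type 2 locus, had an interaction of 1.94 (0.81), from values of 7.45, 5.80 and 3.41 TPM that went to 1.48, 2.84 and 1.26 TPM in CD18wt and of 2.74, 2.97 and 5.50 that went to 6.82, 6.01 and 1.75 TPM in CD18Foxp3 Treg. Tnf rose by 3.16 and 2.35 (interaction -0.81, 0.34). Ebi3 was the fourth cytokine gene with an unadjusted p under 0.05 (3.84% of all tested genes had one).

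Among 22 tested chemokine receptors and ligands 7 rose and 8 fell in CD18wt, and 9 rose and 8 fell in CD18Foxp3. Of all tested genes 19% and 20% rose, 15.3% and 16.8% fell, and 3.84% had an unadjusted p of the interaction under 0.05. In this list 4 had such a p. These were Cxcr3, Ccr8, Xcl1 and Cxcl2, with 2 of each sign. Xcl1, a chemokine for cross-presenting dendritic cells, reached 108, 43.0 and 27.8 TPM in stimulated CD18wt from 8.74, 1.42 and 5.18 TPM at rest. CD18Foxp3 Treg had 11.8, 12.6 and 11.7 TPM at rest and 29.9, 17.2 and 25.4 TPM after stimulation, so that it started higher and ended lower on average. The responses were 3.13 (adjusted p = 0.000283) and 0.64 (adjusted p = 0.314), with an interaction of -2.49 (standard error 0.76). Of 24 costimulatory and coinhibitory receptors 3 had an unadjusted p under 0.05, Tnfrsf8, Icos and Tnfrsf9, all positive. Of 24 cytokine receptors 2 did, Tgfbr1 (0.54, standard error 0.19) and Il17ra (-0.50, 0.20), and 14 fell in CD18wt and 12 in CD18Foxp3.

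Several differences that were present at rest were also present after stimulation. Gpr15, a homing receptor for the large intestine, stood at 22.5, 20.8 and 12.3 TPM in unstimulated CD18wt and 57.2, 63.6 and 86.5 TPM in unstimulated CD18Foxp3 Treg. After stimulation it stood at 46.7, 30.3 and 18.8 and at 116, 89.6 and 176 TPM, again without overlap. The difference between the genotypes was 1.86 (standard error 0.34) before and 2.01 (0.33) after, in libraries that the 2 comparisons do not share, and the interaction was 0.14 (0.46). Il18r1, a receptor chain for IL-18, differed by 0.98 before and 0.98 after, with an interaction of 0.0024 (0.30). Ly6c1 did not follow this. It stood at 119, 142 and 133 against 238, 215 and 238 TPM at rest and at 31.3, 27.9 and 34.5 against 27.6, 44.0 and 23.4 TPM after stimulation, with an interaction of -0.76 (0.24) and a difference of 0.79 (0.17) that became 0.03 (0.18). Of the 12 genes called between the genotypes at rest in earlier work on these data, 2 had an unadjusted p of the interaction under 0.05, Ly6c1 and Hif1a. Of all tested genes 3.84% had such a p. The interval of the interaction lay within 2-fold for only 4 of the 12, so a higher p does not show that a difference carried over. That list was chosen on these unstimulated libraries.

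Most follicular Treg genes fell in both genotypes, and interferon-inducible genes fell more often than they rose. Of all tested genes 19% and 20% rose, 15.3% and 16.8% fell, and 3.84% had an unadjusted p of the interaction under 0.05. Of 14 follicular genes 11 fell in CD18wt and 10 in CD18Foxp3, with medians of -2.26 and -2.07, and 0 had an unadjusted p of the interaction under 0.05. The follicular homing receptor Cxcr5 fell by 2.32 and 2.49, and the transcription factor Bcl6 by 2.74 and 2.29. Of 24 interferon-inducible genes 11 fell and 3 rose in CD18wt and 13 fell and 2 rose in CD18Foxp3, with medians of -0.92 and -0.97. Rsad2, the antiviral gene of viperin, fell by 3.70 and 4.38, and Ifit3 by 3.68 and 3.48. The feedback inhibitors of receptor signals were split in both, with 8 rises in each and 8 falls in CD18wt against 9 in CD18Foxp3, among 25 genes. Of these, Spred1, an inhibitor of Ras signals, had an unadjusted p of the interaction under 0.05 (0.73, standard error 0.29), with rises of 1.46 in CD18wt and 2.19 in CD18Foxp3 Treg.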

How the data were processed

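RNA was sequenced from 12 libraries of sorted Treg, with 3 in each of the 4 groups. Per the labels and the study's methods, the authors trimmed single reads of 59 bases, aligned them to GRCm38 and counted them in CLC Genomics Workbench with default settings. The deposited tables hold, per gene, exon read counts, total and uniquely placed, and TPM written with decimal commas. Counts cover whole genes and PCR duplicates could not be removed, so intervals cover the spread between libraries only.

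Total exon read counts were fitted in edgeR 4.0.16 (R 4.3.3) by the quasi-likelihood method with robust dispersion, TMM normalization and one mean per group, after filterByExpr with a minimum count of 10. Standard errors were taken from the fold change and its F statistic. The threshold for a call was a fold of 1.5 or more with p, adjusted by Benjamini-Hochberg over all tested genes, no higher than 0.01. Tests were two-sided. As alternatives, each library was left out in turn, a replicate block was added, upper-quartile scaling and other filters were used, only uniquely placed reads were counted, and the test was replaced by DESeq2 1.42.0, by the likelihood ratio test of edgeR, or by limma 3.58.1 with TPM on a log2 scale after adding 1 or 0.1. The fit was also run on simulated counts, and the outcome is not reported here. Figures were drawn with matplotlib 3.10.9 in Python 3.11.15.

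Unstimulated and stimulated cultures of a genotype with the same replicate number carry the same running number in the deposited tables and were taken as paired. Deviations of same-numbered libraries from their group means correlated at -0.088 to 0.12 (6 pairs), and those of other numbers at -0.10 to 0.085. These ranges overlap, and the labels do not say that same-numbered cultures came from the same mouse. The responses per replicate, their correlations and the choice of genes by responses that do not overlap rest on this pairing. No replicates of a group agreed within sampling noise (chi-square per gene 5.89 to 61.2).

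The comparison, the 22 gene lists (427 genes), the 6 marker lists and the named genes were chosen with earlier results of these data known. Named genes were Itgb2 and Itgal, the 8 genes in each direction with the smallest unadjusted p of the interaction (mean of at least 5 TPM, at least 80% uniquely placed reads, responses not overlapping), the 5 largest mean rises and falls, and per list the members with the largest response and the smallest p. Some genes that meet this rule are not reported here.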

Additional observations from a re-analysis of the deposited data

Results flagged for a closer look

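Irgm1, which encodes an interferon-inducible GTPase, is singled out because its response was above 0 in all 3 replicates of one genotype and below 0 in all 3 of the other, on the log2 scale of library-scaled counts. It stood at 43.2, 54.2 and 46.5 TPM in unstimulated and 90.7, 76.5 and 73.0 TPM in stimulated CD18wt Treg, and at 67.1, 70.1 and 68.9 and then 81.0, 94.0 and 66.8 TPM in CD18Foxp3 Treg. In TPM, a scale that moves up with stimulation, all but the last CD18Foxp3 replicate rose as well. The opposite sign of the responses thus depends on the scaling of the libraries. The fitted responses were 0.34 in CD18wt and -0.14 in CD18Foxp3, neither of them called, and the interaction was -0.48 (standard error 0.19), with an unadjusted p of 0.0245 and an adjusted p of 0.987 in edgeR's quasi-likelihood test. Of the 24 interferon-inducible genes tested, it alone had an unadjusted p of the interaction under 0.05. Of all tested genes 3.84% had such a p, so that this count was near the background. Responses that did not overlap between the genotypes, a wider class than opposite signs, were found in 10.1% of all tested genes.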

How the results depend on the processing

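The count of genes called for the interaction was 0 under the replicate block, upper-quartile normalization, uniquely placed reads, a minimum of 10 reads in every library and an adjusted p of 0.05, and from 0 to 0 when each library was left out. It was 1 with DESeq2, 6 with the likelihood ratio test, 1 with limma on either TPM scale, and 31 with no filter, where the median residual degrees of freedom were 182136 against 16.2. Pearson's r between the responses was 0.455 with no filter, 0.950 with at least 10 reads in every library, 0.926 with limma on log2(TPM + 1) and 0.819 to 0.854 when each library was left out. The slope was 0.956 with no filter and 0.938 to 1.07 with a library left out. The median interaction of rising genes was 0.0038 with limma on log2(TPM + 0.1) and ranged from -0.0027 to 0.091 with a library left out, and that of falling genes from -0.12 to 0.010, both changing sign without stimulated CD18wt replicate 1.

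With the replicate block, which pairs cultures by number, 4157 genes were called in CD18wt, 4507 in CD18Foxp3, 3581 in both, 5175 in the mean response and 0 for the interaction (504 at an unadjusted p under 0.05). The block counted 8 effector and 5 identity Treg genes at an unadjusted p under 0.05, against 7 and 4, and turned the interactions of Fos to -0.072 and Fosb to -0.50. Limma on log2(TPM + 1) and log2(TPM + 0.1) turned Fos to -0.47 and -0.48, Fosb to -0.97 and -1.18, Il2 (first scale) to -0.66, Cd7 (first scale) to -0.0029 and Ccl4 (second scale) to 0.40. With a library left out, the interaction ranged from -0.20 to 0.069 for Itgb2, -0.14 to 0.021 for Itgal, -1.87 to 0.24 for Ccl3, -1.09 to 0.11 for Ccl4, -0.048 to 0.96 for Fosb, -0.23 to 3.26 for Gm20069 and -0.12 to 0.66 for Cd7. The cause of these changes was not tested. Of the 16 genes with the smallest p, 6 passed the threshold with no filter, and Pdgfb could not be fitted with at least 10 reads in every library. Below a mean of 1 TPM, depth limits what can be said of either response.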
